A study of Mus musculus with 4 samples.

Results

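A list of 35 genes known to be induced by type I interferon was followed in sorted Lewis lung carcinoma (LLC) cells, out of 35905 genes with a value in the 4 libraries. The list was drawn by function and holds antiviral effectors, the ISG15 system and transcription factors of the pathway. LLC is a mouse lung cancer line from the C57BL/6 strain. TdTomato-marked LLC cells were grown under the flank skin of C57BL/6 hosts for 4 weeks. The TdTomato+ CD45- fraction, which keeps marked tumour cells and leaves out leukocytes, was then sorted and sequenced as poly-A RNA. The PAD4-DN hosts (Mrp8Cre+, Padi4fl/fl) carried a Cre driven by the Mrp8 promoter, which is active in neutrophils and other myeloid cells, and gave 2 libraries. The WT hosts (Mrp8Cre-, Padi4fl/fl) carried the same floxed alleles without Cre and also gave 2 libraries. The sources used here give no host age or sex and do not state whether the replicates came from separate animals, so any p-value measures the spread between these libraries only.

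Type I interferons bind a receptor made of Ifnar1 and Ifnar2, which activates the kinases Jak1 and Tyk2. These act on Stat2, which works with Irf9 in the complex ISGF3, and this complex binds an interferon-response element in the promoters of its target genes. The products block viral replication, degrade RNA, tag proteins with the ubiquitin-like protein Isg15 and adjust the strength of the signal, and tumour cells can show the same programme without a virus.

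The libraries held between 20036322 and 25327974 estimated counts. Padi4, the gene deleted in the host neutrophils, had 6 and 0 counts in the PAD4-DN libraries and 0 and 2 counts in the WT libraries, which checks neither the deletion nor the labels because the sorted cells were not its target. Keratin 8 and keratin 18 transcripts (Krt8, Krt18) and vimentin (Vim), which carcinoma cells of mesenchymal form express, were abundant, with Vim at 3518 and 3198 CPM in PAD4-DN and 3809 and 3351 CPM in WT. CPM is the number of counts per 1000000 counts of the library, after TMM scaling. The CD45 gene Ptprc was low, at 5.41 and 0.713 CPM in PAD4-DN and 2.20 and 1.71 CPM in WT. TdTomato itself was not analysed here.

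The interferon-response element was located in the promoters, since it is the sequence through which the pathway acts on these genes. The core searched was GAAANNGAAA, or TTTCNNTTTC for the other strand, in windows that ran from 250 bases before to 50 bases after the RefSeq start (build GRCm38.p6). Of the 26 list genes with a promoter in the table, 11 (42.3%) held it. It was held by 1131 of all 32851 promoters (3.44%) and 391 of the 10218 tested genes with a promoter (3.83%). Usp18, Oas2, Mx1, Mx2, Rtp4, Ifi27, Parp9, Parp14 and Ifi204 had no entry. Stretches upstream of the start are shown for 6 of the 11 genes, chosen to span large and moderate differences between libraries, with the matches in capitals and each read along the strand of its gene. Bases 5′ to 3′ are given for Isg15 (chr4:156200863-156200908, minus strand), Ifit1 (chr19:34640773-34640825, plus strand), Ifit3 (chr19:34583361-34583428, plus strand), Ifit3b (chr19:34607757-34607824, plus strand), Oas1a (chr5:120907526-120907557, minus strand) and Bst2 (chr8:71537575-71537614, minus strand).
Isg15: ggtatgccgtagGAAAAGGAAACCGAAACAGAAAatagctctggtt
Ifit1: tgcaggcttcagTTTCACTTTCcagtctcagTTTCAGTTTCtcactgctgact
Ifit3: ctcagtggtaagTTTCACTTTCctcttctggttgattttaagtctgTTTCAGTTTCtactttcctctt
Ifit3b: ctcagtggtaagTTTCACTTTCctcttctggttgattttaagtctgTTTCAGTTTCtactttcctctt
Oas1a: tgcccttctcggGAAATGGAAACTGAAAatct
Bst2: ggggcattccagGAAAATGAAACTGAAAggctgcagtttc
In Isg15 the capitals join 3 overlapping matches, and in Oas1a and Bst2 they join 2. The stretches of Ifit3 and Ifit3b were identical over 68 bases, with 34 bases between the first letters of their matches. A match is a description of letters and does not show binding.

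All 35 genes passed the filter on low counts, and WT replicate 2 was the highest of the 4 libraries for all 35. Over the 13718 genes tested, WT replicate 2 was the highest for 22.3%. The excess of WT replicate 2 was taken as its log2(CPM + 0.5) minus the mean of the other 3 libraries. It had a median of 1.67, or 3.18-fold, and ran from 0.31 for Mx1 to 3.03 for Oas2, against a median of 0.02 over all genes tested. An excess of at least 2-fold was found for 25 of the 35 genes, against 1.85% of all genes tested. The summed level of the list was 609 and 559 CPM in PAD4-DN replicates 1 and 2 and 541 and 1317 CPM in WT replicates 1 and 2. The other 3 libraries were therefore close in sum, and the WT libraries lay on either side of the PAD4-DN libraries. In bulk libraries, more cells with the programme and more RNA of it per cell cannot be told apart.

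**Figure D1:**
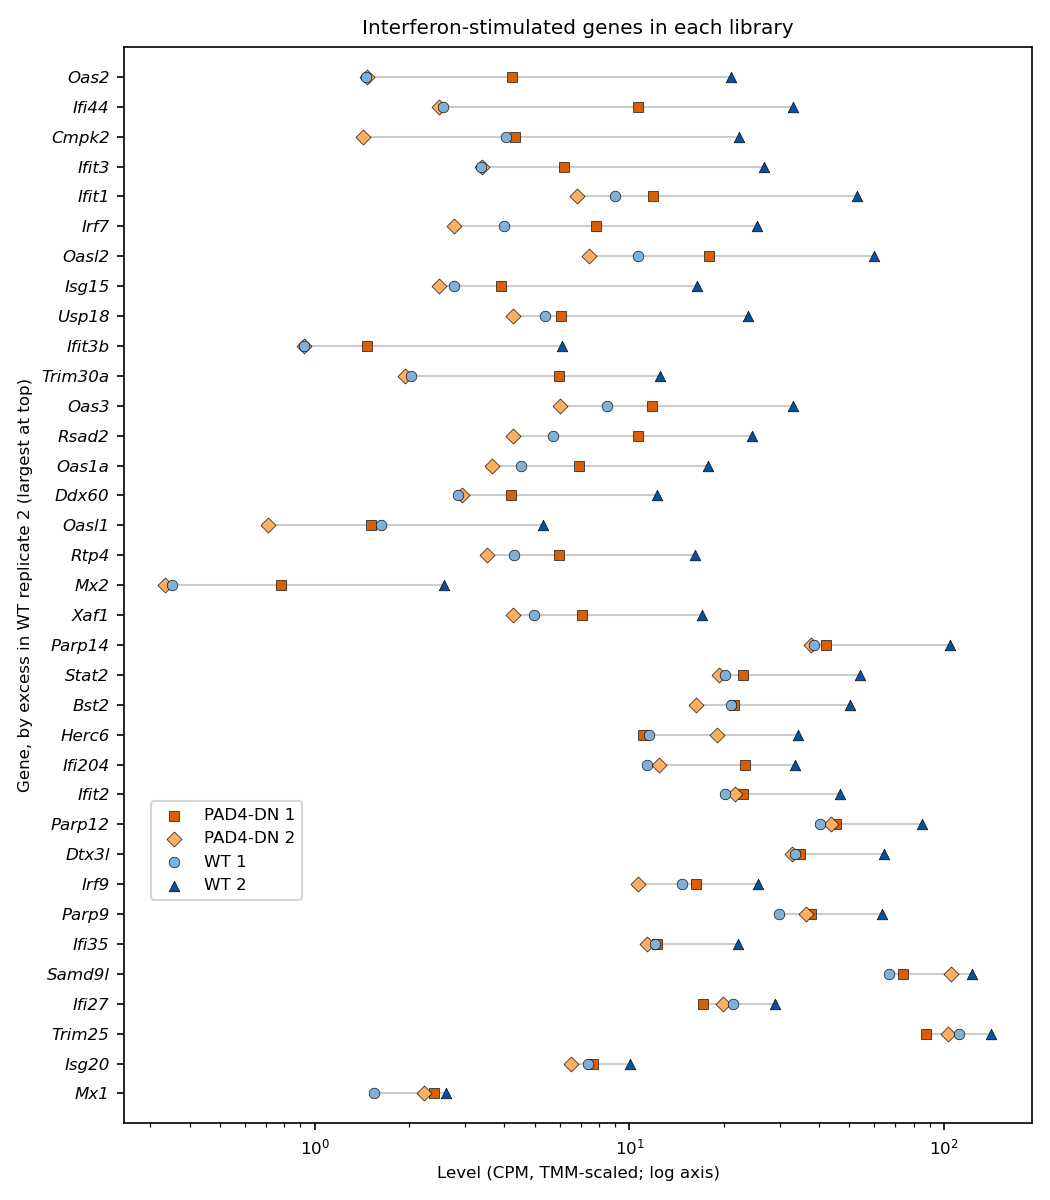
Level of each of the 35 genes (rows) in each of the 4 libraries (symbols) in TMM-scaled CPM on a log axis, ordered by the excess of WT replicate 2, with grey lines from the lowest to the highest library. WT replicate 2 is the rightmost symbol in every row, at 21.0 CPM for Oas2 in the top row and 2.62 CPM for Mx1 in the bottom row.

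The transcription factors of the pathway showed a graded excess. Irf7, which amplifies interferon production and is itself induced, was at 7.85 and 2.77 CPM in PAD4-DN and 4.00 and 25.3 CPM in WT. Stat2, a subunit of ISGF3, was at 22.9 and 19.3 CPM in PAD4-DN and 20.1 and 54.1 CPM in WT. Irf9, the DNA-binding subunit of ISGF3, was at 16.2 and 10.6 CPM in PAD4-DN and 14.7 and 25.6 CPM in WT. WT replicate 2 was 5.20-fold above the other libraries for Irf7, 2.57-fold for Stat2 and 1.84-fold for Irf9, and in each case the other WT library lay between the PAD4-DN libraries.

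The IFIT proteins bind foreign RNA and restrain its translation. Ifit1 was at 11.9 and 6.79 CPM in PAD4-DN and 8.97 and 52.7 CPM in WT. Ifit3 was at 6.20 and 3.40 CPM in PAD4-DN and 3.39 and 26.7 CPM in WT, and its near copy Ifit3b at 1.46 and 0.922 CPM in PAD4-DN and 0.923 and 6.11 CPM in WT. Ifit1, Ifit3 and Ifit3b had an excess of 4.17-fold to 5.84-fold in WT replicate 2, whereas Ifit2 was at 23.0 and 21.6 CPM in PAD4-DN and 20.1 and 46.5 CPM in WT, an excess of 2.13-fold. Ifit2 had no match to the core in its promoter windows, while the other 3 had 2 matches each. Across the list, the 15 genes without a match had log2 excesses from 0.46 (Isg20) to 2.85 (Ifi44). The 11 genes with a match had log2 excesses from 1.35 to 2.55. A link between matches and the excess was not tested. Ifit3 and Ifit3b shared 61.8% of the 31-base words of the Ifit3 transcript, so the split of reads between them is uncertain.

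Oligoadenylate synthetases sense double-stranded RNA and make oligoadenylates that activate RNase L. Oas2 had the largest excess of the list, at 4.24 and 1.47 CPM in PAD4-DN and 1.45 and 21.0 CPM in WT. Its log2 fold change between genotypes was −1.98 (SE 1.19, adjusted p = 0.988 by edgeR), and leaving out WT replicate 2 turned it to 0.97. Oas3 was at 11.8 and 6.04 CPM in PAD4-DN and 8.48 and 33.1 CPM in WT, and Oas1a at 6.93 and 3.65 CPM in PAD4-DN and 4.53 and 17.8 CPM in WT. For these genes PAD4-DN replicate 1 was the library next below WT replicate 2. Oas1a shared 68.8% of its 31-base words with other genes, mostly Oas1g, and its level is uncertain for that reason. Oasl2, an oligoadenylate synthetase-like protein with ubiquitin-like domains, was at 17.9 and 7.42 CPM in PAD4-DN and 10.7 and 59.9 CPM in WT. Isg20, an exonuclease for single-stranded RNA, differed little between libraries, at 7.66 and 6.50 CPM in PAD4-DN and 7.39 and 10.04 CPM in WT, with a log2 fold change of −0.30 (SE 0.26, adjusted p = 0.988 by edgeR) that was −0.06 without WT replicate 2.

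The ISG15 system attaches and removes Isg15. Isg15 itself was at 3.90 and 2.47 CPM in PAD4-DN and 2.77 and 16.3 CPM in WT. Usp18, which removes Isg15 from proteins and dampens signalling at Ifnar2, was at 6.05 and 4.28 CPM in PAD4-DN and 5.41 and 23.8 CPM in WT. Herc6, the main ligase for Isg15 in mice, was at 11.1 and 18.9 CPM in PAD4-DN and 11.5 and 34.2 CPM in WT. The excess was 4.81-fold for Isg15, 4.27-fold for Usp18 and 2.49-fold for Herc6. Herc6 differed from the first pair in the order of the PAD4-DN libraries, with replicate 2 above replicate 1.

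Effectors that act on membranes or on nucleotides for viral replication included Cmpk2 and Rsad2, neighbouring genes whose enzymes act on pyrimidine nucleotides. Cmpk2 was at 4.34 and 1.43 CPM in PAD4-DN and 4.04 and 22.4 CPM in WT, with a log2 fold change of −2.20 (SE 0.91, adjusted p = 0.988 by edgeR), the most negative of the list. Leaving out PAD4-DN replicate 1 gave −3.22, and leaving out WT replicate 2 gave −0.50. Rsad2 was at 10.7 and 4.28 CPM in PAD4-DN and 5.72 and 24.6 CPM in WT. Both had PAD4-DN replicate 1 at least 2.34-fold above PAD4-DN replicate 2 on the CPM + 0.5 scale. Bst2, or tetherin, which holds budding virus at the cell surface, had the highest mean TPM of the list, a level per length, at 54.7 and 41.1 TPM in PAD4-DN and 48.6 and 124 TPM in WT. In PAD4-DN replicate 2, Ifi27 was above it, at 45.2 TPM. Its log2 fold change from counts was −0.92 (SE 0.42, adjusted p = 0.988 by edgeR), and −0.16 without WT replicate 2. Rtp4, a receptor-transporting protein, had an excess of 3.34-fold.

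The Mx genes were the lowest of the list in CPM in WT replicate 2. Mx1 encodes a dynamin-like GTPase that blocks influenza virus, and the C57BL/6 strain carries a deletion that removes its function. Mx1 was at 2.39 and 2.22 CPM in PAD4-DN and 1.54 and 2.62 CPM in WT. Its log2 fold change was 0.15 (SE 0.42, adjusted p = 0.992 by edgeR), the only positive one of the list, and it was −0.02 on log2(TPM + 1) and −0.17 with effective length offsets. Of the Mx1 counts, 97.5% lay on a transcript that GENCODE release M21 labels as subject to nonsense-mediated decay. Mx2, labelled a polymorphic pseudogene there, was at 0.781 and 0.335 CPM in PAD4-DN and 0.352 and 2.58 CPM in WT. Mx2 thus showed an excess of 3.18-fold and Mx1 one of 1.24-fold.

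PARP enzymes add ADP-ribose to proteins, and Dtx3l is the ubiquitin ligase partner of Parp9. Parp14 was at 42.0 and 37.6 CPM in PAD4-DN and 38.6 and 104 CPM in WT. Parp12 was at 45.3 and 43.7 CPM in PAD4-DN and 40.3 and 85.0 CPM in WT. Parp9 was at 37.9 and 36.3 CPM in PAD4-DN and 29.9 and 63.6 CPM in WT, and Dtx3l at 34.8 and 32.7 CPM in PAD4-DN and 33.5 and 64.4 CPM in WT. Excesses were 1.83-fold for Parp9, 1.90-fold for Dtx3l, 1.96-fold for Parp12 and 2.62-fold for Parp14. The ratio of PAD4-DN replicate 1 to PAD4-DN replicate 2 on the CPM + 0.5 scale was largest for Parp14 among these 4 genes, at 1.11.

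Among the remaining effectors, Ifi44, an antiviral protein that restrains proliferation, was at 10.7 and 2.47 CPM in PAD4-DN and 2.55 and 33.0 CPM in WT. Its log2 fold change was −1.44 (SE 1.19, adjusted p = 0.988 by edgeR), and leaving out WT replicate 2 turned it to 1.36. Trim30a, a regulator of inflammatory signalling, followed the same order, at 5.95 and 1.93 CPM in PAD4-DN and 2.02 and 12.5 CPM in WT. Both genes were thus high in 1 library of each genotype. Ifi204, a DNA-binding protein of the p200 family, was at 23.4 and 12.4 CPM in PAD4-DN and 11.4 and 33.6 CPM in WT, and 46% of its 31-base words are shared with other genes. The helicase-like Ddx60, the apoptosis factor Xaf1 and Ifi35 had excesses of 3.37-fold, 3.01-fold and 1.82-fold. Samd9l, a translation-restricting protein, was at 74.1 and 105 CPM in PAD4-DN and 66.6 and 123 CPM in WT, so that PAD4-DN replicate 2 was near the top library.

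The excess tended to be larger for genes with a lower level in the other 3 libraries. It also tended to be larger where PAD4-DN replicate 1 lay further above PAD4-DN replicate 2. PAD4-DN replicate 1 was the next highest library for 30 of the 35 genes, WT replicate 1 for 3 and PAD4-DN replicate 2 for 2. PAD4-DN replicate 1 lay above PAD4-DN replicate 2 for 31 of the 35 genes, with a median difference of 0.57 on the log2(CPM + 0.5) scale, against 0.01 over all genes tested. The 4 exceptions were Herc6, Samd9l, Ifi27 and Trim25. Across the 35 genes, Pearson's r between the excess of WT replicate 2 and the difference between the PAD4-DN libraries was 0.78 (Spearman's rho 0.81). Across the same genes, r between the excess and the mean log2 level of the other 3 libraries was −0.58 (rho −0.59). The genes come from the same libraries and the measures share values of them, so these are descriptions without a test. Among list genes with a promoter, the median excess was 1.91 for the 11 with the core (range 1.35 to 2.55) and 1.09 for the 15 without it (range 0.46 to 2.85). Over the 10218 tested genes with a promoter it was 0.07 with the core and 0.02 without.

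**Figure D2:**
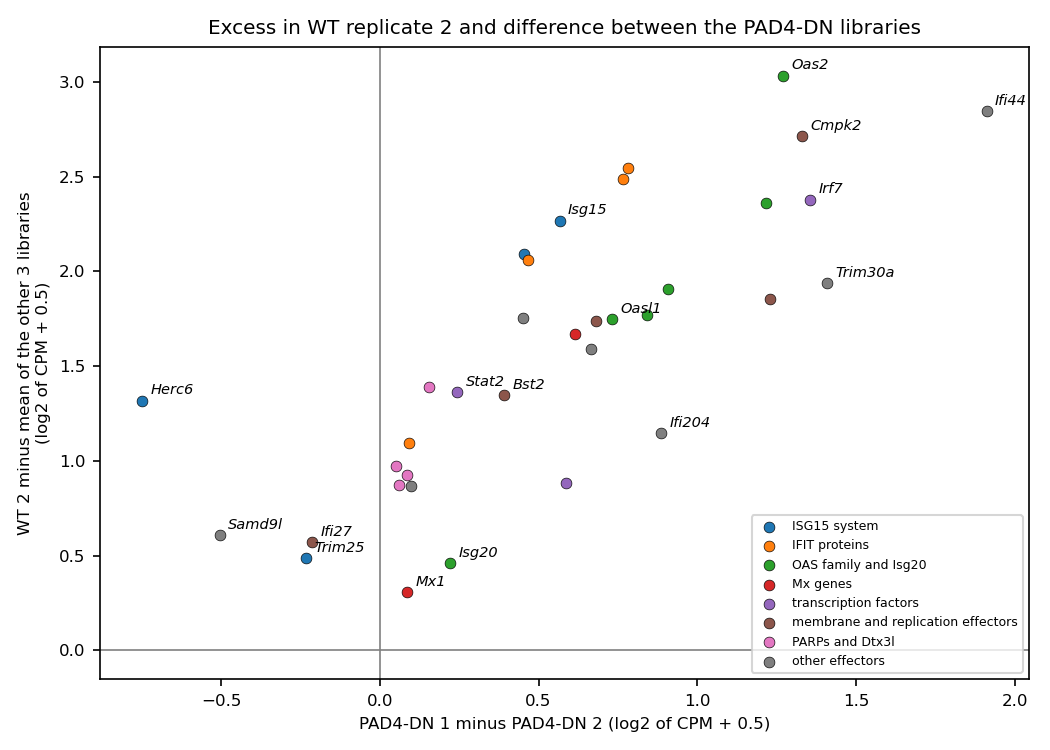
Excess of WT replicate 2 over the mean of the other 3 libraries (vertical) against PAD4-DN replicate 1 minus PAD4-DN replicate 2 (horizontal), both as log2 of CPM + 0.5, for the 35 genes coloured by role. Genes with the largest excess, such as Oas2 (3.03) and Ifi44 (2.85), lie to the right, and Herc6, Samd9l, Ifi27 and Trim25 lie left of 0.

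The comparison of genotypes asks whether loss of Padi4 in host neutrophils alters the programme in the tumour cells. By the quasi-likelihood test of edgeR, 0 of the 35 genes had an adjusted p under 0.05, and 0 of all 13718 genes tested (0%) did. At an unadjusted p under 0.05, edgeR gave 0 of the 35 and 364 of all genes, and the smallest unadjusted p of the list was 0.0515, for Trim25. No list gene had an unadjusted p under 0.05 and lower values in PAD4-DN by edgeR, against 1.43% of all genes. By DESeq2 and limma-voom 0 list genes passed as well. At an unadjusted p under 0.05, DESeq2 gave 8 of the 35 list genes and 364 of all 13718 genes. Limma-voom gave 0 of the 35 and 361 of all genes. The median log2 fold change of the list was −0.96, with 34 of 35 negative, against 0.01 and 48.6% negative over all genes tested. Without WT replicate 2 the median was 0.19, with 26 of 35 positive. It was −1.67 without WT replicate 1, when all 35 were negative. That direction was bound to follow, since WT replicate 2, the highest library for all 35 genes, was then the only WT library.

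**Figure D3:**
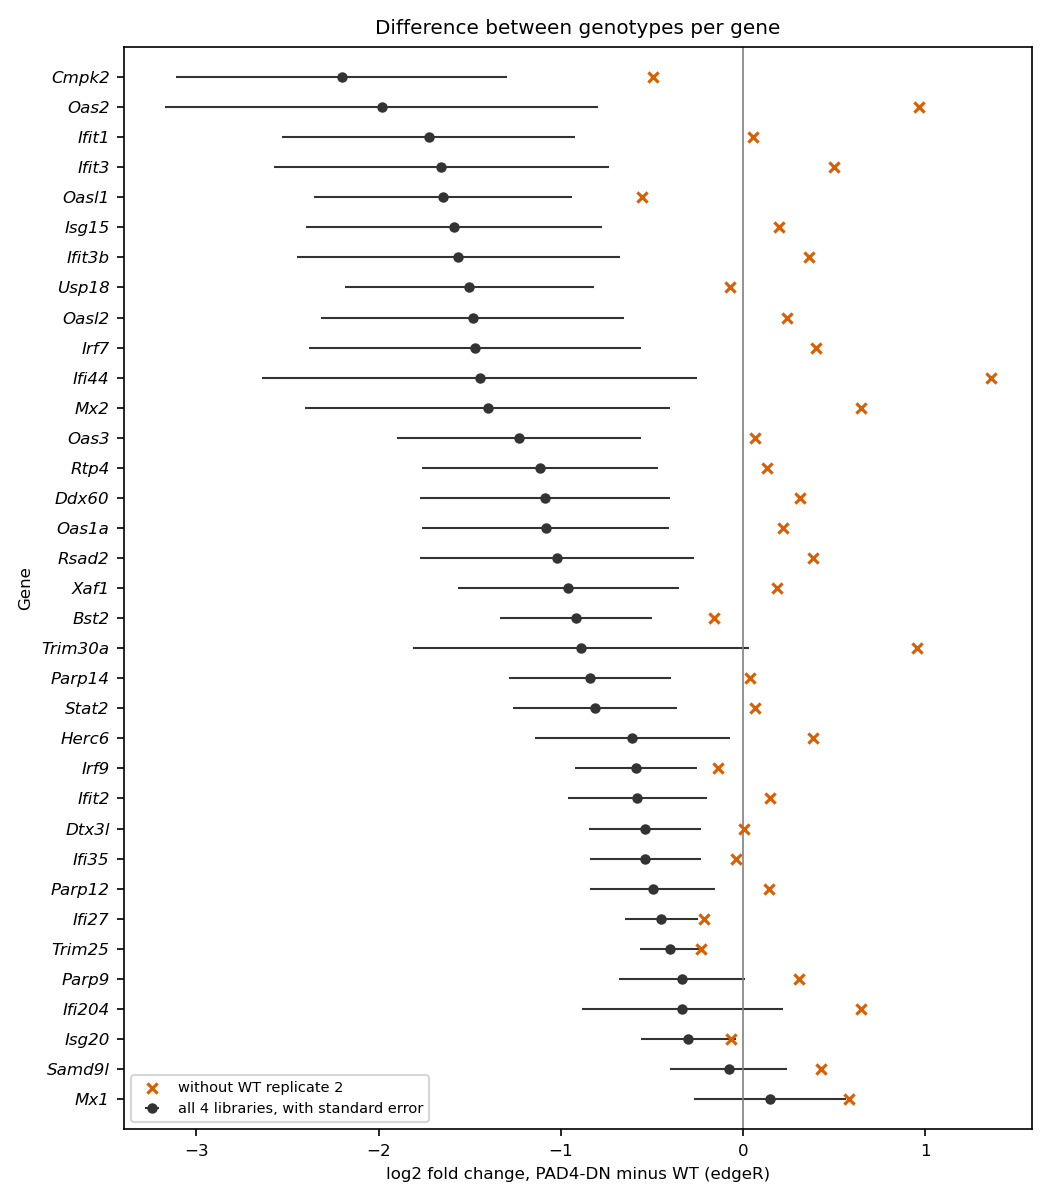
Log2 fold change of PAD4-DN minus WT for the 35 genes by edgeR, with all 4 libraries (black circles, bars show the standard error) and without WT replicate 2 (orange crosses, no error shown). The circles of 34 genes lie left of 0, while 26 crosses lie right of it.

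The genotypes did not overlap for 3 of the 35 genes (8.57%), all with both PAD4-DN libraries below both WT libraries, against 17.4% of all genes tested. No list gene had both PAD4-DN libraries above both WT libraries, against 15.4% of all genes. The 3 genes were Trim25, Ifi27 and Oasl1. Trim25, a ubiquitin ligase that acts on the RNA sensor RIG-I, was at 87.7 and 103 CPM in PAD4-DN and 112 and 141 CPM in WT. It averaged 95.4 ± 10.97 CPM in PAD4-DN and 126 ± 20.5 CPM in WT (SD, n = 2 each), with a log2 fold change of −0.40 (SE 0.16, adjusted p = 0.988 by edgeR). Ifi27, a small membrane protein of mitochondria and the nuclear envelope, was at 17.1 and 19.9 CPM in PAD4-DN and 21.4 and 29.0 CPM in WT, with a log2 fold change of −0.45 (SE 0.20, adjusted p = 0.988 by edgeR). Oasl1, which in mice represses translation of Irf7, was at 1.51 and 0.713 CPM in PAD4-DN and 1.63 and 5.31 CPM in WT, with a log2 fold change of −1.65 (SE 0.71, adjusted p = 0.988 by edgeR). Without WT replicate 2 the log2 fold changes were −0.23 for Trim25, −0.21 for Ifi27 and −0.55 for Oasl1. Since WT replicate 2 was the highest library for all 35 genes, no overlap here means only that WT replicate 1 was the next highest. In TPM, which is scaled by transcript length, the genotypes kept apart for Trim25 alone of the 3, at 24.0 and 27.2 TPM in PAD4-DN and 28.0 and 36.0 TPM in WT. With 2 libraries in each group, the smallest two-sided p that exact permutation allows is 0.333.

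The receptor chains and their kinases were near level across the libraries, while Irf1 and Socs3 were not. Transcripts of 12 interferon genes, including Ifnb1 and 5 numbered Ifna genes, summed to 2 and 1 counts in PAD4-DN and 3 and 0 counts in WT. In WT replicate 2 a sum of 0 leaves room for as many as 3 counts (0.118 CPM), for counting error only. The receptor chain Ifnar1 was at 64.0 and 62.5 CPM in PAD4-DN and 58.4 and 53.7 CPM in WT, and Ifnar2 at 22.5 and 23.2 CPM in PAD4-DN and 26.1 and 21.2 CPM in WT. Jak1 was at 395 and 464 CPM in PAD4-DN and 435 and 375 CPM in WT, and Tyk2 at 20.5 and 19.3 CPM in PAD4-DN and 20.7 and 24.7 CPM in WT. WT replicate 2 was thus the lowest library for Ifnar1, Ifnar2 and Jak1. The transcription factor Irf1 was at 75.8 and 38.4 CPM in PAD4-DN and 44.3 and 73.2 CPM in WT, high in PAD4-DN replicate 1 and WT replicate 2. The feedback inhibitor Socs3 was at 113 and 58.6 CPM in PAD4-DN and 59.4 and 73.8 CPM in WT. Of the 15 receptor and signal transduction genes, 0 passed by edgeR in either direction, and WT replicate 2 was the highest library for 3.

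**Figure D4:**
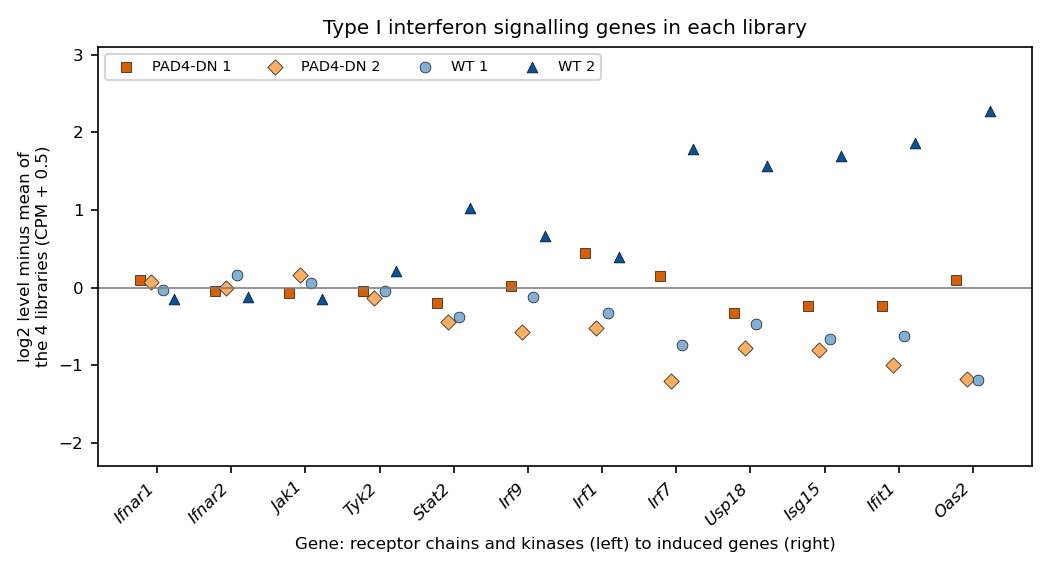
Level of 12 pathway genes in each library, as log2 of CPM + 0.5 minus the mean of the 4 libraries, from receptor chains and kinases on the left to induced genes on the right. The 4 libraries lie together for Ifnar1, Ifnar2, Jak1 and Tyk2, and WT replicate 2 is the top library for Stat2, Irf9, Irf7, Usp18, Isg15, Ifit1 and Oas2.

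Other interferon-induced genes outside the list were also mostly highest in WT replicate 2, and PAD4-DN replicate 1 was the next highest library for 17 of them. Of 34 tested, 0 passed by edgeR in either direction (3 had an unadjusted p under 0.05, all lower in PAD4-DN), WT replicate 2 was the highest library for 29, and the median excess was 0.79. The most abundant of them were Ifitm3, a membrane protein that blocks virus entry, at 229 and 318 CPM in PAD4-DN and 394 and 394 CPM in WT, the zinc finger antiviral protein Zc3hav1, at 161 and 215 CPM in PAD4-DN and 189 and 228 CPM in WT, and Pnpt1, at 81.2 and 119 CPM in PAD4-DN and 97.7 and 105 CPM in WT. Ifitm3 was high in both WT libraries, Pnpt1 was highest in PAD4-DN replicate 2, and PAD4-DN replicate 1 was the lowest library for Ifitm3, Zc3hav1 and Pnpt1. Of 18 genes of the interferon-gamma response and class I antigen presentation, 0 passed by edgeR (1 had an unadjusted p under 0.05), WT replicate 2 was the highest for all 18, and the median excess was 1.15. The largest of these were B2m, the light chain of class I molecules, at 476 and 517 CPM in PAD4-DN and 615 and 828 CPM in WT, the heavy chain H2-D1, at 476 and 360 CPM in PAD4-DN and 516 and 722 CPM in WT, and the peptide-loading protein Tapbp, at 127 and 160 CPM in PAD4-DN and 166 and 233 CPM in WT.

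Markers of other cells were summed in each library beside these values. The 10 macrophage and monocyte genes summed to 84.8 and 12.2 CPM in PAD4-DN and 43.2 and 44.1 CPM in WT, and the 7 pan-leukocyte genes to 38.0 and 5.28 CPM in PAD4-DN and 17.3 and 16.9 CPM in WT. Both lists were near equal in the WT libraries, where the interferon-stimulated genes differed by 1.68 in the median (log2), and both were higher in PAD4-DN replicate 1 than in PAD4-DN replicate 2. The 8 neutrophil genes summed to 20.9 and 9.98 CPM in PAD4-DN and 17.1 and 7.30 CPM in WT, and the 8 T and NK cell genes to 9.32 and 5.24 CPM in PAD4-DN and 6.68 and 3.85 CPM in WT. The neutrophil marker Ly6g had at most 1 count in any library, whereas S100a9 had 145 and 29 counts in PAD4-DN and 126 and 24 in WT. Of the plasmacytoid dendritic cell list, Klk1 and Ly6d had 0 counts in all 4 libraries. Siglech of the same list had 24 and 11 counts in PAD4-DN and 6 and 2 in WT, and Ccr9 had 20 and 19 in PAD4-DN and 19 and 11 in WT. The 6 genes of that list summed to 554 and 520 CPM in PAD4-DN and 448 and 504 CPM in WT, nearly all from Tcf4. The 7 endothelial genes summed to 68.6 and 35.8 CPM in PAD4-DN and 41.8 and 33.1 CPM in WT. The 9 fibroblast genes summed to 14715 and 8771 CPM in PAD4-DN and 9270 and 10871 CPM in WT. Most of that sum came from Col3a1, at 11638 and 6564 CPM in PAD4-DN and 7405 and 8248 CPM in WT. Within the same list, Col1a1 was at 652 and 16.9 CPM in PAD4-DN and 16.0 and 531 CPM in WT, and Col1a2 at 467 and 3.94 CPM in PAD4-DN and 0.879 and 404 CPM in WT. The libraries with high type I collagen were the same pair in which most list genes were highest. Col3a1, Pdgfra and Pdgfrb were also higher in that pair, by smaller margins. Pdgfrb was at 10.3 and 3.86 CPM in PAD4-DN and 5.72 and 9.88 CPM in WT. Dcn, Lum, Dpt and Fap were present in all 4 libraries and did not follow that order. Fap was lowest in WT replicate 2, at 29.2 and 29.1 CPM in PAD4-DN and 26.5 and 12.1 CPM in WT. The part of these cells in the interferon-stimulated levels was not tested.

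**Figure D5:**
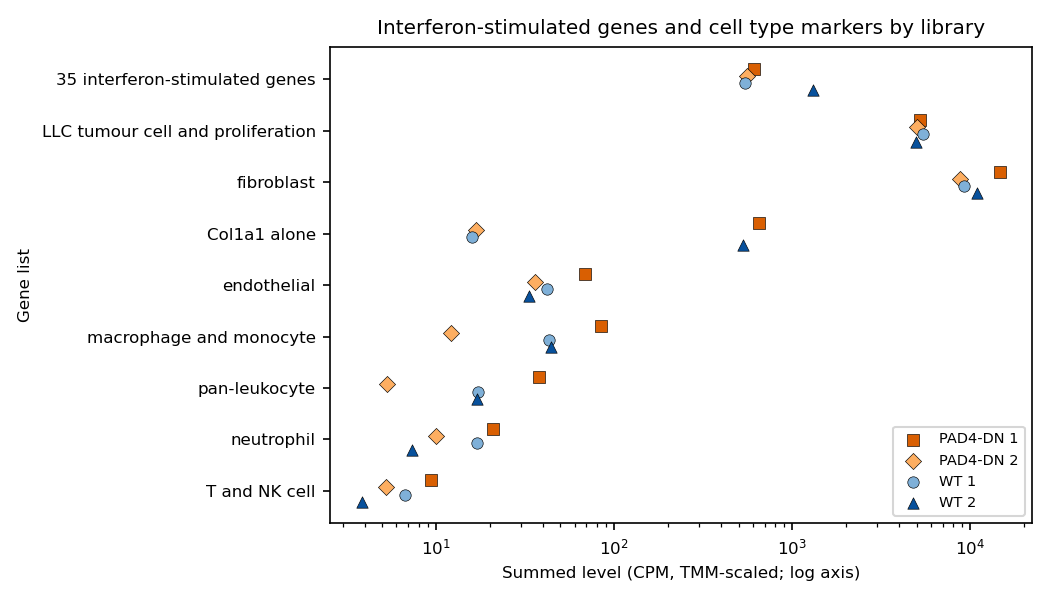
Summed TMM-scaled CPM (log axis) of the 35 interferon-stimulated genes and of marker lists, with Col1a1 shown alone, in each of the 4 libraries. The interferon-stimulated sum is set apart in WT replicate 2 (1317 CPM), while the macrophage and pan-leukocyte sums are lowest in PAD4-DN replicate 2 and near equal in the WT libraries.

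Transcript estimates showed forms of some list genes with counts in WT replicate 2 alone. The Oas2 transcript Oas2-202 had 0 and 0 estimated counts in PAD4-DN and 0 and 82.5 in WT. The Cmpk2 transcript Cmpk2-204, which keeps an intron, had 0 and 0 estimated counts in PAD4-DN and 0 and 56.8 in WT, and the Rsad2 transcript Rsad2-202, labelled as subject to nonsense-mediated decay, had 0 and 0 in PAD4-DN and 0 and 68.0 in WT. Even so, the leading transcript carried most counts of each gene in WT replicate 2, at 82.0% for Oas2, 89.6% for Cmpk2 and 89.0% for Rsad2. Oasl2 had its counts spread over 2 main forms, with 45.9% and 46.6% in WT replicate 2. Kallisto assigns reads to forms by estimate, and a form with few counts can be set to 0.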

How the data were processed

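Per the labels' protocols, 100 ng of RNA gave strand-specific poly-A libraries. Quantification with kallisto and build GRCm39 is named per the submitters' processing notes, with version and annotation not given in the sources used here. The authors deposited estimated counts (not normalized), TPM (scaled by effective length) and, per the file headers, other values, namely transcript lengths. Of 117486 transcripts, 116408 matched GENCODE release M21 by identifier, and estimated counts were summed over 35905 genes and rounded. edgeR 4.0.16 (R 4.3.3) was used with TMM, filterByExpr (13718 genes), its quasi-likelihood test, and p-values adjusted over all genes by Benjamini-Hochberg at 0.05. Fold changes are PAD4-DN minus WT, with a pseudocount of 0.5 CPM where levels are compared on a log scale. Alternatives used DESeq2 1.42.0 and limma 3.58.1. The test was tried on simulated counts, and no result given here rests on them. Promoters are from RefSeq (GRCm38.p6), and 31-base words were counted in GENCODE M21 transcripts.

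The genes and lists were chosen with earlier results of these data known. Fold changes and tests are given for list genes without overlap between genotypes, the 3 of highest TPM, and the 3 of largest and of smallest excess in WT replicate 2. The 3 most abundant genes of each pathway list are named by rule, and Ifnar2, Tyk2, Irf1 and marker genes were named after their values were seen.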

Additional observations from a re-analysis of the deposited data

How the results depend on the processing

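No list gene passed under any alternative tried. WT replicate 2 was the highest library for every list gene tested (31 to 35) under the DESeq2 size factors, the other low-count filters, the TPM scales, the effective length offsets and each fit that left out another library. The median log2 fold change, −0.96 as reported, was −0.57 on log2(TPM + 1), −1.08 with effective length offsets and −0.77 with the replicate block, and with each library left out in turn it ran from −1.67 to 0.19, the last without WT replicate 2. The count of list genes with no overlap and PAD4-DN lower was 3, against 1 on log2(TPM + 1) and 1 on log2(TPM + 0.1). The cause of that fall was not tested. With a library left out the count was 3 to 35 (27 without PAD4-DN replicate 1, 35 without WT replicate 1). Without WT replicate 1 it was bound to be 35, since WT replicate 2 was the highest library for all 35 genes. Without PAD4-DN replicate 1, only PAD4-DN replicate 2 had to lie below the WT libraries. The median excess was 1.41 on log2(TPM + 1). Over all genes, 0 passed by edgeR, against 11 by DESeq2, 10 without the low-count filter, and 0 to 2 with a library left out. Without that filter 27 of the 35 list genes had an unadjusted p under 0.05 by edgeR, against 737 of all 21921 genes. The smallest adjusted p of the list was then 0.247 by edgeR. The log2 fold change of Mx1 turned to −0.022 on log2(TPM + 1) and −0.17 with effective length offsets. With a library left out, Mx1 ran from −0.18 to 0.58, Oas2 from −2.94 to 0.97 and Ifi44 from −2.85 to 1.36, while Cmpk2, Bst2, Oasl1, Isg20, Ifi27 and Trim25 stayed negative but were nearest to 0 without WT replicate 2, at −0.50, −0.16, −0.55, −0.06, −0.21 and −0.23. The same replicate numbers did not pair the libraries by the labels. With the replicate block 0 genes passed, and the correlation of same-numbered deviations was −0.32 over all genes and −0.78 over the 35 list genes. In a crossed block, chosen after seeing the data, 1 gene passed, none of them from the list.

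Fits with a library left out keep 1 library in a group and assume that it varies like the others. With 2 libraries a group, the standard error of the log2 fold change had a median of 0.65 over list genes, against 0.20 over all genes tested.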
